A study of Mus musculus with 26 samples.

Results

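The outer retina is fed by glucose that crosses the retinal pigment epithelium (RPE) and returns lactate the same way, and 8 genes of this route were followed across mouse RPE/choroid: the glucose carriers Slc2a1 and Slc2a12, the lactate carriers Slc16a1, Slc16a3 and Slc16a8, the carrier chaperone Bsg, and the lactate dehydrogenases Ldha and Ldhb. They form a list of names, with no threshold on a measured value. All 8 had a row among the 16426 genes of both single-cell tables. In the bulk RNA tables, 7 of the 8 were found among 17623 genes, and Slc16a8 was not analysed there.

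As background, RPE cells form the outer blood-retinal barrier through tight junctions, so glucose from the choroid has to pass through carriers in their membranes. Photoreceptors ferment much of this glucose and release lactate. The RPE takes lactate up at the retinal face through MCT1, the product of Slc16a1, and releases it toward the choroid through MCT3, the product of Slc16a8. Both carriers need basigin, the product of Bsg, to reach the membrane, and lactate dehydrogenase interconverts lactate and pyruvate.

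Single-cell RNA sequencing (scRNAseq) covered 1 library from B6129PF1/J mice and 1 from C57BL/6J mice, both 3 months old. Each library pooled an eye of a male and an eye of a female after perfusion and removal of the neural retina, and living nucleated cells were sorted. The tables held 3637 cells and 17168578 unique molecular identifiers (UMIs, each marking 1 captured RNA molecule) for B6129PF1/J, and 3928 cells and 15230413 UMIs for C57BL/6J. Bulk RNA sequencing compared RPE/choroid of 6-month-old C57BL/6J mice with and without endothelial Ihh, and cultured choroidal GLI1+ cells with and without the Hedgehog agonist SAG, each with 3 libraries per group. In the mutants, labelled Ihhi{delta}EC/{delta}iEC and written here IhhiΔEC/iΔEC, tamoxifen given 12 weeks earlier activated Cdh5-CreERT2, a Cre driven by the Cdh5 promoter of endothelial cells (ECs), in Ihh loxP/loxP animals. Their controls were labelled wild type, but per the methods were tamoxifen-treated Ihh+/+ littermates that also carried Cdh5-CreERT2. The GLI1+ cells carried Gli1GFP/+. Their strain was labelled SWR/J, but per the methods the animals had been outcrossed to BALB/c mice and intercrossed. The cells came from sorted GFP+ cells of pooled mice that had been expanded and frozen, and received DMSO or 100 nM SAG for 24 h.

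The authors assigned the cells to 13 clusters, and a level below is the sum of a gene's UMIs over a cluster's cells divided by all UMIs of that cluster, per 10,000. Its 95% interval is exact for a Poisson count. The deposited cell numbers, per library and for most clusters, differed from those the study printed. The RPE cluster held 407 cells in the B6129PF1/J library and 374 in the other. The summed level of 5 RPE markers was 1222 and 1152 UMIs per 10,000 there, and at most 15.5 and 21.5 in any other cluster. The marker lists of ECs, stromal cells, smooth muscle, melanocytes, hematopoietic cells and Schwann cells were likewise highest in a cluster of that name in both libraries. The EC clusters are called Kdr-high, which the study places in the choriocapillaris next to the RPE, Kdr-med and Kdr-low. With 1 library per strain no test between strains was possible. The clusters were made from the same counts, so differences between clusters are descriptions and were not tested. Intervals cover counting error only and no p-value is given. In all, 22 cell barcodes occurred in both libraries, 0.605% and 0.560% of their cells.

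Set against all other cells of the tissue as 1 group, the RPE differed in the level of each of the 8 genes. Slc2a1, Slc2a12, Slc16a1, Slc16a8, Bsg and Ldhb were at least 2-fold higher in the RPE than in all other cells together in both libraries, and Slc16a3 and Ldha were at least 2-fold lower. A ratio was counted only where its interval left out 1. Among 12720 genes compared in this way 8.99% were higher and 39.2% lower. Over the 8 genes the log2 ratio of RPE to other cells had a median of 3.21 (B6129PF1/J) and 3.20 (C57BL/6J), beside −0.98 and −0.99 over all genes compared.

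**Figure D1:**
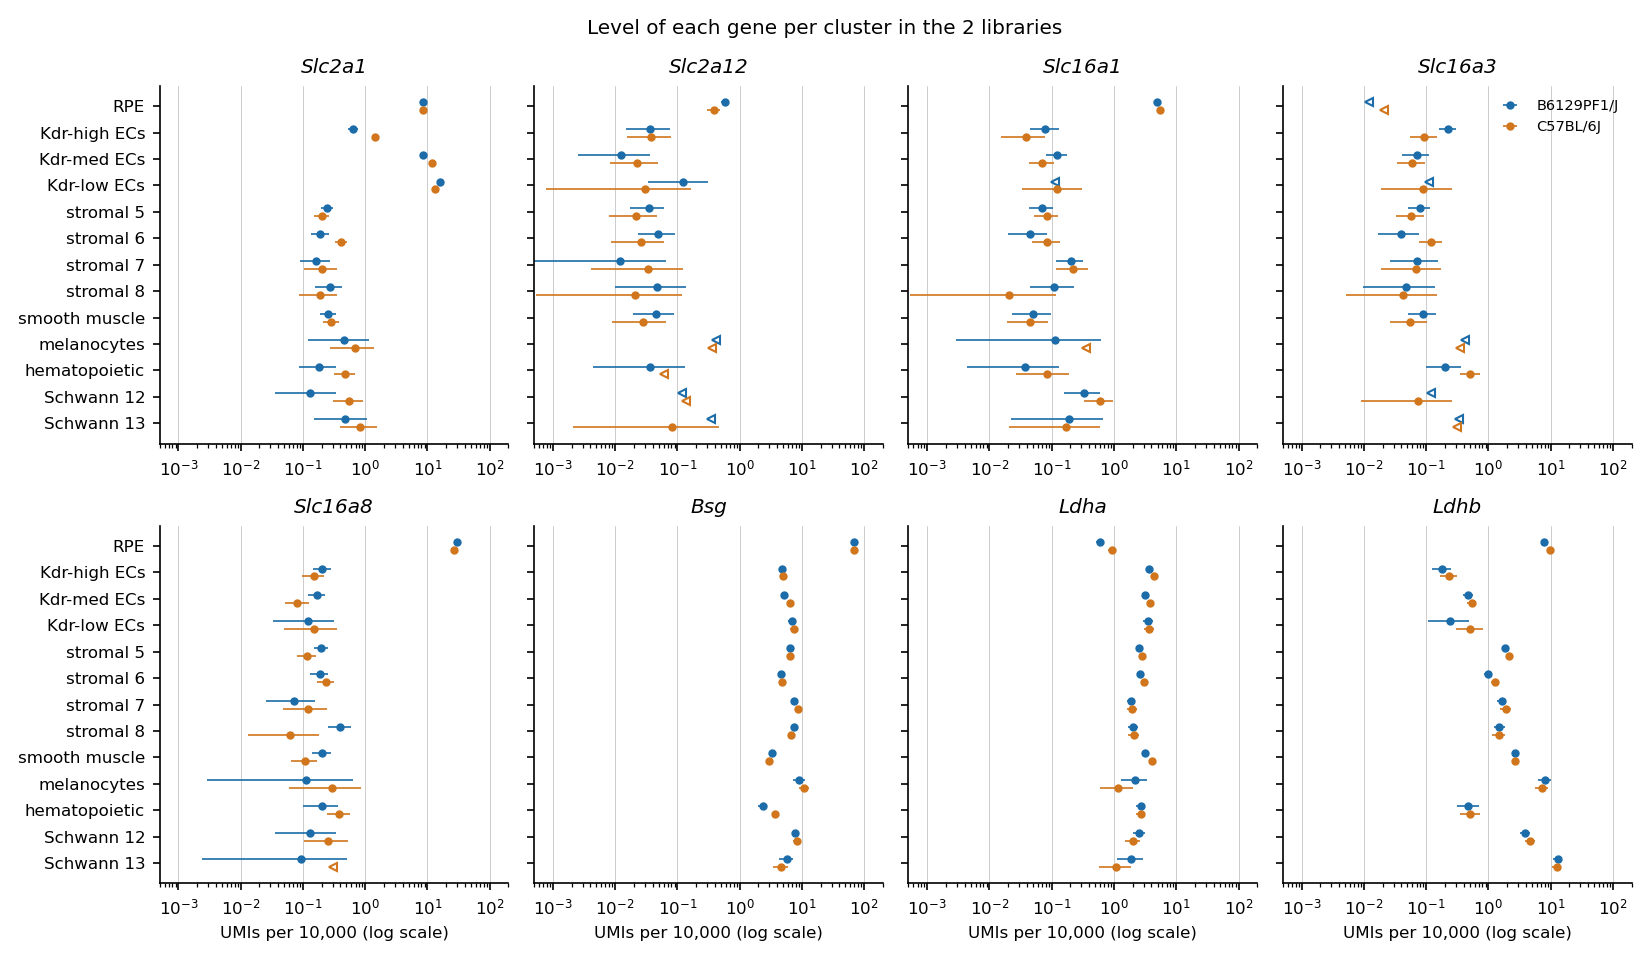
Level of each of the 8 genes (x axis, UMIs per 10,000, log scale) in the 13 clusters (y axis) of the B6129PF1/J and C57BL/6J libraries. Points are levels, bars are exact Poisson 95% intervals, and open triangles mark the upper limit where no UMI was counted. Slc16a1, Slc16a8 and Bsg peak in the RPE, Ldha and Slc16a3 are lowest there or at 0, and Slc2a1 is high in RPE, Kdr-med and Kdr-low ECs.

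Slc2a1 (chr4:119108711-119137983, plus strand, GRCm38) encodes GLUT1, the main glucose carrier of blood-tissue barriers. Its level in the RPE was 8.49 UMIs per 10,000 (95% interval, 8.16 to 8.83) in B6129PF1/J and 8.53 (8.10 to 8.97) in C57BL/6J. The RPE was not the highest cluster. Kdr-low ECs reached 15.8 (14.46 to 17.22) and 13.4 (12.20 to 14.73) UMIs per 10,000. Kdr-med ECs reached 8.58 (8.22 to 8.96) and 11.8 (11.41 to 12.24). Kdr-high ECs, the endothelium that faces the RPE, held only 0.646 (0.537 to 0.770) and 1.46 (1.29 to 1.65), and the other 9 clusters lay between 0.131 and 0.835.

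The order of the 4 clusters that held Slc2a1 was Kdr-low, Kdr-med, RPE and Kdr-high in both libraries, with differences of unequal firmness. By summed UMIs, RPE and Kdr-med ECs did not differ beyond counting error in B6129PF1/J, with a ratio of Kdr-med to RPE of 1.01 (0.954 to 1.07). In C57BL/6J this ratio was 1.39 (1.303 to 1.48). The near tie in B6129PF1/J changed with the processing. There, Kdr-med ECs held 10.7 and RPE 8.18 UMIs per 10,000 after every cell was thinned to 1700 UMIs. As means over cells they held 10.6 and 8.60. Kdr-low exceeded Kdr-med 1.84-fold (1.67 to 2.03) in B6129PF1/J but 1.14-fold (1.03 to 1.254) in C57BL/6J. The last ratio was 0.976 after every cell was thinned to 1700 UMIs, 1.04 as a mean over cells and 1.28 without doublets and the deepest cells, so the top place of Kdr-low ECs in C57BL/6J changed with the processing.

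The step from Kdr-high to Kdr-med ECs was larger than that between Kdr-med ECs and RPE. The RPE itself exceeded Kdr-high ECs 13.15-fold (10.97 to 15.89) in B6129PF1/J and 5.83-fold (5.12 to 6.67) in C57BL/6J. Slc2a1 was 13.3-fold (11.08 to 16.08) higher in Kdr-med than in Kdr-high ECs in B6129PF1/J and 8.08-fold (7.13 to 9.19) in C57BL/6J, and the latter became 12.3-fold after thinning. For Kdr-low over Kdr-high ECs the ratios were 24.5 (20.06 to 30.03) and 9.18 (7.87 to 10.72). The summed RPE markers did not rise with this step, at 6.26 and 4.63 UMIs per 10,000 in Kdr-med ECs and 7.72 and 6.86 in Kdr-high ECs. Of the 7 genes with enough UMIs for the comparison of Kdr-med with Kdr-high ECs, Slc2a1 and Ldhb were at least 2-fold higher in both libraries and none was lower, beside 3.94% higher and 1.42% lower of all genes compared. Between Kdr-low and Kdr-high ECs, Slc2a1 alone of 6 compared was at least 2-fold higher and none was lower, beside 4.40% and 4.96% of all genes.

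Within a cluster, Slc2a1 was spread more unevenly over ECs than over RPE cells. In Kdr-med ECs, 33.95% of B6129PF1/J and 27.3% of C57BL/6J cells had no Slc2a1 UMI, while the 10% of cells with the most Slc2a1 UMIs held 41.3% and 38.8% of the cluster's Slc2a1 UMIs. In the RPE, 5.90% and 10.7% of cells had none, and the top 10% held 30.6% and 31.9%. The median RPE cell was at 7.78 and 8.04 UMIs per 10,000, above the median Kdr-med cell at 3.55 and 7.43. The upper ends ran the other way, since the 90th percentile was 15.6 and 17.3 in RPE and 33.1 and 37.5 in Kdr-med ECs. With every cell thinned to 1700 UMIs, 71.3% and 73.5% of RPE cells but 50.0% and 60.3% of Kdr-med and 9.19% and 14.6% of Kdr-high ECs had a Slc2a1 UMI. At the same depth 26.5% and 33.5% of Kdr-med ECs and 17.4% and 21.4% of RPE cells had at least 3. More RPE cells thus carried the transcript, and more Kdr-med ECs carried much of it, in both libraries.

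**Figure D2:**
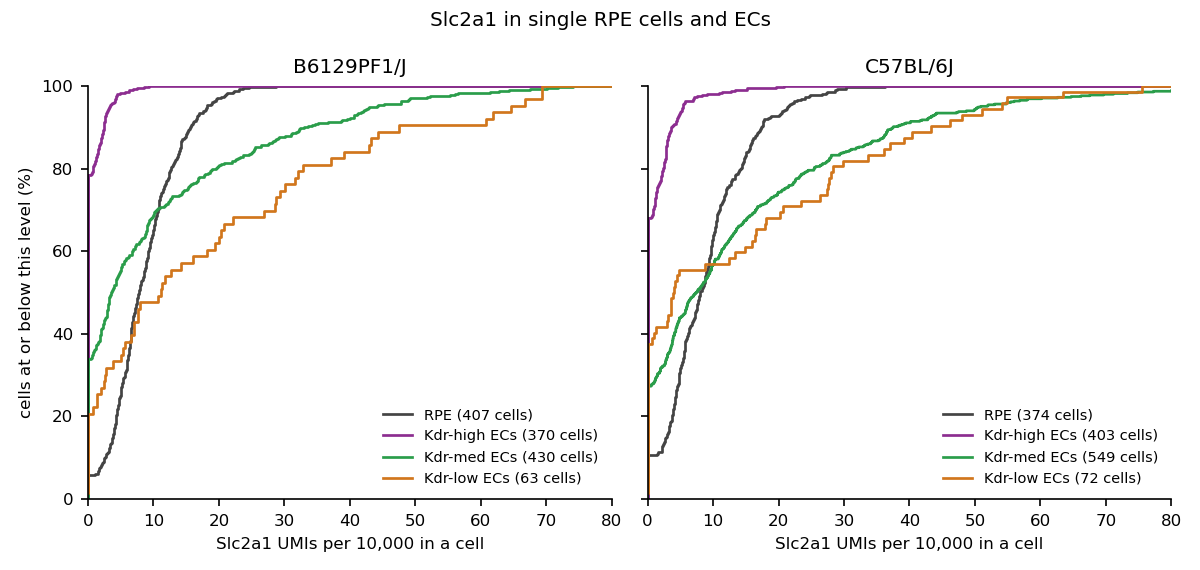
Cumulative share of cells (y axis, %) at or below a Slc2a1 level (x axis, UMIs per 10,000 in the cell) for RPE, Kdr-high, Kdr-med and Kdr-low cells of each library. The x axis ends at 80, and 1 C57BL/6J Kdr-med cell reached 140.2. The RPE curve starts at 5.90% and 10.7% and rises steeply, while the Kdr-med curve starts at 33.95% and 27.3% and crosses below it.

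Slc2a12 (chr10:22645011-22704285, plus strand), which encodes the glucose carrier GLUT12, was a low transcript of the RPE. The RPE level was 0.577 UMIs per 10,000 (0.494 to 0.670) in B6129PF1/J and 0.389 (0.302 to 0.493) in C57BL/6J, 16.7-fold (12.08 to 23.40) and 15.4-fold (10.08 to 24.02) above all other cells. The next cluster was Kdr-low ECs at 0.122 in B6129PF1/J and Schwann 13 cells at 0.0835 in C57BL/6J. The RPE exceeded it 4.72-fold (1.81 to 17.5) in B6129PF1/J, whereas in C57BL/6J the interval of the ratio, 0.809 to 186.8, held 1. The RPE cells carried 77.9% and 66.7% of all Slc2a12 UMIs, out of totals of only 222 and 102.

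Slc16a8 (chr15:79251014-79254761, minus strand) encodes MCT3, the lactate exporter of the RPE's choroidal face, and was the most RPE-restricted of the 8 genes. Its level in the RPE was 29.9 UMIs per 10,000 (29.3 to 30.5) in B6129PF1/J and 26.2 (25.5 to 27.0) in C57BL/6J, which ranked it 26th and 32nd of all genes there. The other clusters lay between 0.0707 and 0.395 in B6129PF1/J and between 0 and 0.379 in C57BL/6J. The RPE exceeded all other cells 158.5-fold (140.3 to 179.7) and 184.1-fold (159.3 to 213.8), and 97.1% and 96.0% of its UMIs came from RPE cells.

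A Slc16a8 UMI was found in 403 of 407 and 371 of 374 RPE cells. In Kdr-high ECs 5.14% and 3.72% of cells had one, at median depths of 4232.5 and 3460 UMIs per cell beside 5263 and 3406.5 in the RPE. The Slc16a8 UMIs outside the RPE kept nearly the same proportion to those of Ttr, an abundant RPE transcript: 26.8 and 25.1 per 1000 Ttr UMIs in RPE and 25.9 and 21.9 in all other cells. Over single clusters outside the RPE this proportion ranged from 17.3 to 38.5 in B6129PF1/J and from 0 to 33.3 in C57BL/6J. Whether the Slc16a8 UMIs outside the RPE came from background RNA, doublets or expression in those clusters was not tested. Over all other cells together, the remaining genes did not keep their RPE proportion. Slc2a1 stood at 7.61 and 8.16 per 1000 Ttr UMIs in RPE and at 283.3 and 475.7 in other cells, Bsg at 62.0 and 65.2 against 732.8 and 870.6, and Ldha at 0.532 and 0.892 against 386.0 and 512.2. Slc16a1 was closest to it, with 4.39 and 5.32 in RPE and 11.9 and 13.03 elsewhere. Over single clusters outside the RPE, Slc16a1 ranged from 0 to 74.1 in B6129PF1/J and from 0 to 54.1 in C57BL/6J. Hematopoietic cells, at 3.39 and 4.22, were near the RPE value, and Kdr-high ECs stood at 11.1 and 6.20. The origin of the Slc16a1 UMIs outside the RPE was not tested.

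Slc16a1 (chr3:104638668-104658462, plus strand), which encodes MCT1, was the other lactate carrier of the RPE. Its RPE level was 4.89 UMIs per 10,000 (4.64 to 5.15) in B6129PF1/J and 5.57 (5.22 to 5.93) in C57BL/6J, 56.4-fold (46.9 to 68.3) and 65.8-fold (54.2 to 80.6) above all other cells. Schwann 12 cells came next at 0.327 and 0.587 UMIs per 10,000, and the RPE exceeded them 15.0-fold (8.12 to 31.3) and 9.48-fold (5.81 to 16.7). RPE cells held 92.3% and 89.5% of the Slc16a1 UMIs of their library. Of RPE cells, 18.2% and 21.1% had no Slc16a1 UMI.

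Slc16a3 (chr11:120948480-120960868, plus strand), which encodes MCT4, a lactate exporter common in fermenting cells, was not detected in the RPE. Its count was 0 in 407 and 374 RPE cells, which, at 3 counts of the total, allows a share of cells with a UMI of up to 0.737% and 0.802%. The other cells held 0.0903 and 0.0920 UMIs per 10,000, so that the RPE level was at least 9.03-fold and 5.36-fold lower, taking a floor of 3 UMIs over the cluster. The exact 95% interval of the ratio of RPE to other cells reached a higher limit, 0.138 and 0.233. The highest clusters were Kdr-high ECs at 0.220 (0.159 to 0.298) and hematopoietic cells at 0.201 (0.1003 to 0.360) in B6129PF1/J, which were not apart. Their order turned, with a ratio of 0.935 in place of 1.10, without doublets and the deepest cells. In C57BL/6J hematopoietic cells led with 0.511 (0.347 to 0.726), 4.23-fold (2.39 to 7.59) above the next cluster, stromal 6. The whole libraries held only 128 and 124 Slc16a3 UMIs.

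Of the UMIs of the 3 lactate carriers in the RPE, Slc16a8 made up 85.9% (85.2 to 86.6, exact binomial interval) in B6129PF1/J and 82.5% (81.5 to 83.5) in C57BL/6J. Slc16a1 made up 14.1% and 17.5%, and Slc16a3 made up 0 of 10424 and 0 of 5556 UMIs. Outside the RPE these carriers were sparse. Kdr-high ECs held 42 and 17 UMIs of Slc16a3 beside 15 and 7 of Slc16a1 and 39 and 27 of Slc16a8. Hematopoietic cells held 11 and 31 of Slc16a3 beside 2 and 5 of Slc16a1 and 11 and 23 of Slc16a8. Schwann 12 cells held 10 and 16 UMIs of Slc16a1 beside 0 and 2 of Slc16a3 and 4 and 7 of Slc16a8.

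The upstream windows of the RPE carrier Slc16a8 and of Slc16a3, the scarce carrier not detected in RPE cells, are printed to set their sequence beside this difference. They are the 250 bases before the RefSeq start in GRCm38.p6, read 5′ to 3′ on the gene's strand: chr15:79254749-79254998, minus strand, for Slc16a8 and chr11:120948817-120949066, plus strand, for Slc16a3. Of these windows 13 and 14 bases lie in GENCODE exons of the same gene. Capitals mark ACGTG on either strand (CACGT on the other), the core of the site bound by hypoxia-inducible factors, which overlaps the E-box CACGTG.
Slc16a8: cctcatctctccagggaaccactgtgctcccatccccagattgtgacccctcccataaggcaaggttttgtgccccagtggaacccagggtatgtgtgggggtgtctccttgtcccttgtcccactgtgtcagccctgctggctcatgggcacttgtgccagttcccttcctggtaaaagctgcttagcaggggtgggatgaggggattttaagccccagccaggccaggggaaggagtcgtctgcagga
Slc16a3: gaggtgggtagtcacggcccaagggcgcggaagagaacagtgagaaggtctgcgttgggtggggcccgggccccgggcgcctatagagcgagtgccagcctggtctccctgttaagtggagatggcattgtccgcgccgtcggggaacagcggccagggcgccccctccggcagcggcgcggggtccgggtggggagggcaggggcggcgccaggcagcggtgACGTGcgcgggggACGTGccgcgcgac
ACGTG occurred in 16.6% of 32851 windows of the same length and at least 2 times in 1.95%. Slc16a3 held 2 such sites, Slc16a8 none, and Slc16a1 and Slc2a1 1 each. The Slc16a3 window was 73.6% G and C with 29 CpG, and the Slc16a8 window 58.8% with 1 CpG. A match describes letters only and was not tested as a binding site.

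Bsg (chr10:79704491-79711969, plus strand) encodes basigin, the chaperone that both MCT1 and MCT3 need, and it was the most abundant of the 8 genes. The RPE held 69.2 UMIs per 10,000 (68.2 to 70.1) in B6129PF1/J and 68.2 (67.0 to 69.4) in C57BL/6J, and Bsg ranked 12th of all genes there in both libraries. Every RPE cell had a Bsg UMI, and the range from the 10th to the 90th percentile of cells was 42.5 to 94.8 and 32.5 to 101.0 UMIs per 10,000. Outside the RPE, Bsg was present at a higher level than Slc16a8 in every cluster. Melanocytes came next at 9.12 and 10.9, and the RPE exceeded them 7.58-fold and 6.26-fold. The lowest clusters were hematopoietic cells at 2.36 in B6129PF1/J and smooth muscle cells at 2.95 in C57BL/6J. RPE cells held 73.3% and 61.0% of the Bsg UMIs.

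Ldha (chr7:46841475-46855627, plus strand) and Ldhb (chr6:142490249-142507957, minus strand) encode the subunits of lactate dehydrogenase, of which the A form is typical of tissues that make lactate and the B form of tissues that oxidise it. The genes ran in opposite directions over the tissue. Ldha was lowest in the RPE, at 0.594 UMIs per 10,000 (0.510 to 0.687) in B6129PF1/J and 0.932 (0.795 to 1.09) in C57BL/6J, while all other cells together held 2.81 and 3.32, 4.74-fold (4.08 to 5.54) and 3.57-fold (3.05 to 4.19) more. The next lowest cluster, Schwann 13, was apart from the RPE in B6129PF1/J (3.14-fold, 1.87 to 4.99) but not in C57BL/6J (1.16-fold, 0.607 to 2.05). Ldha was highest in Kdr-high ECs, at 3.64 and 4.38, where the neighbouring Kdr-low ECs at 3.51 in B6129PF1/J and smooth muscle cells at 4.08 in C57BL/6J did not differ beyond counting error. Ldha has processed pseudogenes, and reads that fit them as well were not examined.

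Ldhb was highest in Schwann 13 cells, at 13.03 UMIs per 10,000 (10.96 to 15.37) in B6129PF1/J and 12.5 (10.60 to 14.69) in C57BL/6J. RPE cells held 7.79 (7.48 to 8.11) and 9.78 (9.32 to 10.26), and melanocytes 7.996 and 7.23. RPE and melanocytes were not apart in B6129PF1/J, while in C57BL/6J the RPE was 1.35-fold (1.07 to 1.73) higher. Schwann 12 cells followed at 3.89 and 4.70, smooth muscle at 2.64 and 2.68, and the 4 stromal clusters at 0.984 to 1.87 and 1.27 to 2.13. Kdr-high ECs were lowest, with 0.179 and 0.230. Kdr-low ECs at 0.244 and 0.514, Kdr-med ECs at 0.473 and 0.542 and hematopoietic cells at 0.475 and 0.511 were the next 3 clusters in both libraries.

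The Ldhb share of Ldha and Ldhb UMIs, which does not depend on a cluster's depth, was high in the RPE and lowest in Kdr-high ECs. It was 92.9% (91.9 to 93.9) and 91.3% (89.9 to 92.5) in the RPE, and 4.67% (3.26 to 6.47) and 4.99% (3.62 to 6.69) in Kdr-high ECs. Schwann 13 cells had 87.5% and 92.0%, with an interval in C57BL/6J (86.7 to 95.7) that held the RPE value, melanocytes 78.9% and 86.2%, and Schwann 12 cells 60.7% and 70.0%. The other clusters lay between, with stromal clusters from 27.2% to 48.9%, smooth muscle at 45.8% and 39.7%, and hematopoietic cells at 14.9% and 16.1%. Kdr-med ECs, at 13.3% and 12.4%, were above Kdr-high ECs with intervals that did not overlap in either library. Kdr-low ECs were not apart from Kdr-high ECs in B6129PF1/J, where 8 of 123 UMIs were Ldhb and the interval held the Kdr-high share. In C57BL/6J the Kdr-low share was 12.2%, with an interval above that of Kdr-high ECs.

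**Figure D3:**
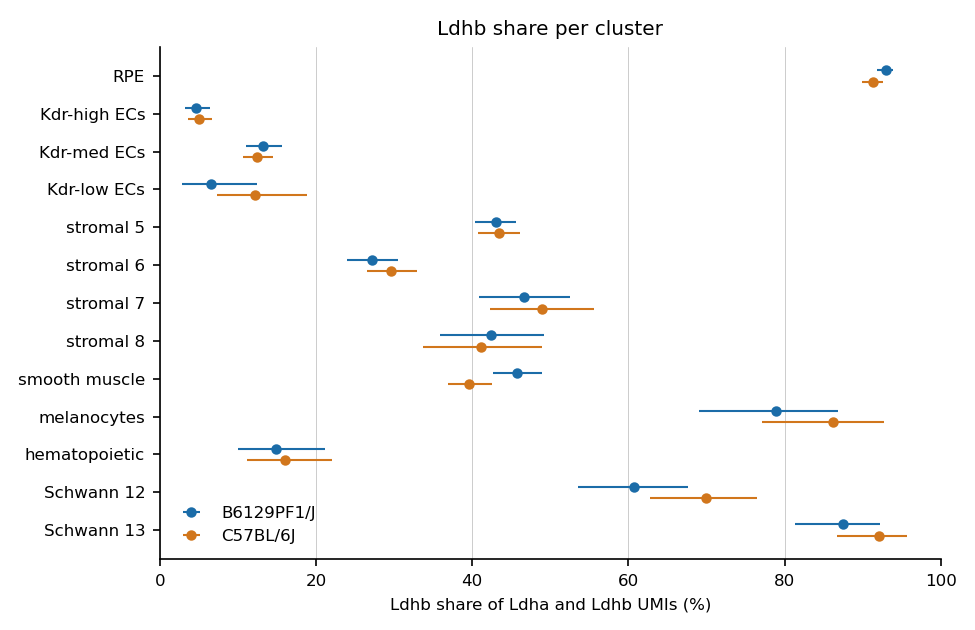
Ldhb share of the summed Ldha and Ldhb UMIs (x axis, %) in each of the 13 clusters (y axis) of both libraries, with exact binomial 95% intervals as bars. The RPE lies at 92.9% and 91.3%, and Kdr-high ECs lie at 4.67% and 4.99%.

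The windows before the starts of Ldha and Ldhb are shown because these subunit genes of 1 enzyme were split so sharply between RPE and ECs. They are chr7:46845554-46845803, plus strand, for the first Ldha start and chr6:142507958-142508207, minus strand, for Ldhb, from RefSeq on GRCm38.p6, with no base in a GENCODE exon and capitals as above.
Ldha: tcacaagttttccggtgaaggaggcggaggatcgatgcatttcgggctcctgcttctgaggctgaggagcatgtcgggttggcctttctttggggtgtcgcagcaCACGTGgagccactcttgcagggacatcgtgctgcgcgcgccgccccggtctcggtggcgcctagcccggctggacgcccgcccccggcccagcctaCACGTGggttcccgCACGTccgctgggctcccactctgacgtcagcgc
Ldhb: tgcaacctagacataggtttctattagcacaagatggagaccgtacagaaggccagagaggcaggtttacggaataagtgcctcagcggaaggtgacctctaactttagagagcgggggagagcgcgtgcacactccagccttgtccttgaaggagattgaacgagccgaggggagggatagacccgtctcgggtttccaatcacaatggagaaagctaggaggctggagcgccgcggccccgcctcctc
The Ldha window held 3 ACGTG sites, 2 of them within CACGTG, a number reached by 0.256% of all windows. This window was 67.2% G and C with 25 CpG, and the Ldhb window 56.4% with 14 CpG. The share among windows of like composition was not computed. Ldhb had none, and neither had the window of the second Ldha start or that of Slc2a12. The window of Bsg was not among those available, so 7 of the 8 genes and 8 windows were searched. TAATCC on either strand was searched as well. It occurred 1 time in the window of the second Ldha start and in no other window searched, beside 6.25% of all windows.

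The genes around this route in metabolism were less one-sided in the RPE. For each list below, the shares over all genes compared were 8.99% higher and 39.2% lower, with median log2 ratios of −0.98 and −0.99. Of the glycolytic enzymes, 16 of 19 listed had enough UMIs, 5 were at least 2-fold higher in RPE than in other cells in both libraries and 2 were lower, and the median log2 ratio was 0.57 and 0.52. Aldoa, an aldolase, stood at 18.7 and 19.6 UMIs per 10,000 in RPE and 5.51 and 5.58 in other cells, and Eno1, an enolase, at 6.08 and 6.34 against 1.14 and 1.34. Gapdh passed no 2-fold mark, at 10.6 and 9.02 against 7.29 and 6.23. The lower genes, picked out after their values were seen, were Hk2, a hexokinase, and Pfkfb3, an activator of phosphofructokinase.

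Of 10 genes of pyruvate entry into mitochondria, all compared, 3 were higher in RPE and 2 lower, with a median log2 ratio of 0.55 and 0.32. Mpc1, a subunit of the mitochondrial pyruvate carrier, held 3.62 and 3.57 UMIs per 10,000 in RPE and 1.44 and 1.59 in other cells. Its partner Mpc2, at 1.91 and 2.02 against 1.58 and 1.63, and the dehydrogenase subunit Pdhb, at 0.734 and 0.566 against 0.426 and 0.454, passed no 2-fold mark.

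Among other monocarboxylate carriers, 7 of 13 listed were compared, 3 were higher in RPE and 1 lower, and the median log2 ratio was 0.86 and 0.74. Slc16a9, a carnitine carrier, was at 1.03 in both libraries in RPE and 0.133 and 0.142 UMIs per 10,000 in other cells, and Slc16a6 at 0.534 and 0.492 against 0.0289 and 0.0163. Neither reached the RPE level of Slc16a1 or Slc16a8.

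Other glucose carriers were scarce. Of 11 listed, 5 were compared, none was higher in RPE and 3 were lower, and the median log2 ratio was −1.15 and −2.91. Over all genes compared, 39.2% were lower, with medians of −0.98 and −0.99. The median of these carriers in B6129PF1/J was near that of all genes. The highest in RPE was Slc2a4, the insulin-responsive carrier, at 0.130 and 0.0858 UMIs per 10,000 against 0.289 and 0.211 in other cells, followed by Slc2a8 at 0.103 and 0.0629 and Slc2a3 at 0.0167 and 0.00572. Slc2a1 and Slc2a12 were thus the glucose carriers with the highest levels in the RPE of those listed, in both libraries.

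Emb, a relative of Bsg that also chaperones MCT1, was at 0.0167 UMIs per 10,000 in the RPE of B6129PF1/J and at 0 in that of C57BL/6J, against 0.689 and 0.481 in other cells. Nptn, the third protein of that family, was at 0.514 and 0.492 in the RPE against 0.871 and 0.717, within 2-fold. The other lactate dehydrogenases Ldhc and Ldhd had too few UMIs to compare, with Ldhd at 0.0133 and 0.0229 in the RPE and Ldhc at 0.

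Of 9 hypoxia response genes, 8 were compared, 1 was higher in RPE and 5 were lower, with a median log2 ratio of −2.25 and −1.79. Of all genes compared, 8.99% were higher and 39.2% lower. The higher one was Vegfa, the endothelial growth factor that sustains the choriocapillaris, at 0.730 and 0.681 UMIs per 10,000 against 0.140 and 0.128. Epas1, a hypoxia-inducible factor enriched in ECs, was at 1.37 and 1.75 in RPE against 4.01 and 3.54, and Hif1a was at 0.750 and 0.709 against 0.660 and 0.674.

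For each of the 8 genes, the genes with the most similar levels over the 13 clusters were ranked by Pearson correlation of log2(UMIs per 10,000 + 0.1), taking the lower of both libraries, among 9664 genes. The points are clusters that share a library, and a correlation is given as a description only. For Slc16a8 these were the RPE genes Ttr (r = 0.988), Rgr (0.985) and Rpe65 (0.982). For Slc16a1 they were BC004004 (0.955), Gm15222 (0.937) and Tshr (0.922), and for Bsg Fbxo36 (0.933), Csad (0.929) and Gm15222 (0.906). For Slc2a12 they were Rhobtb2 (0.922), Adra2c (0.908) and Lhx2 (0.908). These followed the RPE peak, whereas the remaining genes had partners of other shapes.

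Slc2a1 was most like Slco1a4 (0.909), an organic anion carrier, then Myrip (0.886) and Npr1 (0.857). Slco1a4 was likewise high in RPE, at 2.67 and 2.55 UMIs per 10,000, and in Kdr-med ECs, at 2.57 and 4.08, and low in Kdr-high ECs, at 0.0525 and 0.164. Ldhb was most like Cryab (0.937), a small heat shock protein, Klf15 (0.894) and Gprc5b (0.893), and Cryab also peaked in Schwann 13 cells, at 47.9 and 62.2. Ldha was most like Smad7 (0.886), Elf1 (0.882) and Bnip2 (0.866). Slc16a3 had the weakest partners, Rpl27-ps3 (0.815), Gmfg (0.788) and Il13ra1 (0.783), at its low counts.

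Between the strains, the RPE levels of the genes detected there differed by less than 1.5-fold, except that of Ldha. In the RPE, Slc2a1 and Bsg differed by less than counting error, with B6129PF1/J over C57BL/6J ratios of 0.995 (0.933 to 1.06) and 1.01 (0.992 to 1.04). Slc2a12 at 1.48 (1.11 to 1.99) and Slc16a8 at 1.14 (1.10 to 1.18) were higher in B6129PF1/J, and Slc16a1 at 0.879 (0.810 to 0.954) and Ldhb at 0.796 (0.748 to 0.848) were lower. Ldha was 1.57-fold (1.26 to 1.95) higher in C57BL/6J, the only one past 1.5-fold in the RPE, where 17.8% of 8774 genes were. Each strain was 1 library, so strain and library cannot be told apart.

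Over all clusters, 71 of 104 pairs of gene and cluster had at least 20 UMIs over both libraries, and 21 (29.6%) were past 1.5-fold, 10 higher in B6129PF1/J and 11 higher in C57BL/6J, beside 18.9% of the pairs of all genes. The interval left out 1 for 12 of them. The largest counts behind such a difference were those of Slc2a1 in Kdr-high ECs, with 123 and 267 UMIs, 2.27-fold (1.82 to 2.83) higher in C57BL/6J. Bsg in hematopoietic cells followed, with 129 and 228 UMIs, 1.60-fold (1.28 to 2.00) higher in C57BL/6J. Slc16a3 was 2.37-fold (1.32 to 4.44) higher in B6129PF1/J in Kdr-high ECs but 2.54-fold (1.24 to 5.61) higher in C57BL/6J in hematopoietic cells. Slc16a8 was higher in B6129PF1/J, with an interval that left out 1, in 4 clusters outside the RPE: 6.30-fold (1.92 to 32.6) in stromal 8, 2.03-fold (1.18 to 3.59) in Kdr-med ECs, 1.91-fold (1.07 to 3.53) in smooth muscle cells and 1.69-fold (1.09 to 2.68) in stromal 5. The summed RPE markers were 3.31-fold, 1.35-fold, 2.59-fold and 1.254-fold higher in these clusters. Their part in these differences was not tested.

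**Figure D4:**
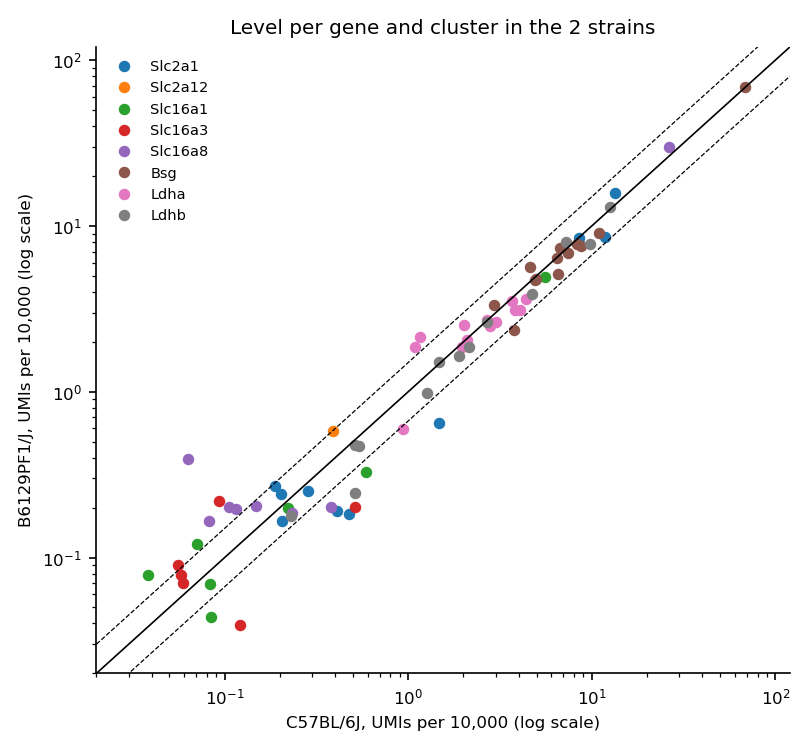
Level in B6129PF1/J (y axis) against C57BL/6J (x axis), both UMIs per 10,000 on log scales, with 1 point for each of the 71 pairs of gene and cluster with at least 20 UMIs over both libraries. The solid line marks equal levels and the dashed lines a 1.5-fold difference, past which 21 points lie.

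In whole RPE/choroid the values were the authors' group averages of FPKM, fragments scaled for sequencing depth and per kilobase of transcript, so levels of different genes can be compared here. The averages carry no spread, so a ratio is a description with no test. The deletion was visible in the tissue: average FPKM of Ihh was 1.53 in controls and 0.454 in IhhiΔEC/iΔEC mice, and the Hedgehog target Gli1 went from 9.40 to 3.15. In control tissue the order by average FPKM was Bsg at 763.6, Slc2a1 at 203.2, Ldhb at 135.4, Slc16a1 at 88.5, Ldha at 58.3, Slc2a12 at 11.2 and Slc16a3 at 2.19.

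None of the 7 genes was past 1.5-fold in either direction, beside 2.17% of 11411 genes higher and 2.53% lower. Slc2a1 had the largest ratio, from 203.2 to 296.1 FPKM or 1.46-fold. Slc16a3 went from 2.19 to 3.13 (1.43-fold), Slc2a12 from 11.2 to 15.2 (1.36-fold) and Slc16a1 from 88.5 to 117.9 (1.33-fold). These 4 were at least 25% higher, as were 5.19% of all genes. Bsg went from 763.6 to 925.0 (1.21-fold) and Ldhb from 135.4 to 151.8 (1.12-fold). Ldha, at 58.3 and 58.0, had a ratio of 0.996, which became 1.02 when the averages were scaled by the median of ratios. The median log2 ratio of the 7 was 0.41, and that of all genes −0.04.

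Several cell type markers moved in the same comparison. All 4 RPE markers with at least 1 FPKM had ratios above 1, from 1.16 to 1.34, with summed averages of 6066 in controls and 7247 in mutants. Photoreceptor markers fell from a sum of 86.5 to 30.2 FPKM (6 of 6 past 1.5-fold), stromal markers had ratios from 0.577 to 0.832 (561.7 to 372.0 FPKM) and melanocyte markers from 0.544 to 0.701 (1613 to 1020 FPKM). EC markers had ratios from 0.819 to 0.989 (69.7 to 60.4 FPKM), smooth muscle markers from 0.786 to 0.964 (56.7 to 50.7 FPKM) and skeletal muscle markers from 1.32 to 1.74 (224.8 to 307.7 FPKM). Hematopoietic markers summed to 583.7 in controls and 804.3 FPKM in mutants, with Lyz2, the lysozyme of macrophages, at 542.0 and 758.7, and Ptprc at a ratio of 0.985. The part of these shifts in the ratios of the 7 genes was not tested. In bulk tissue fewer cells of a type and less RNA per cell cannot be told apart.

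The neighbouring genes of metabolism were nearer to 1. The 16 glycolytic enzymes with at least 1 FPKM had a median log2 ratio of 0.08, and only Aldoc, a brain-type aldolase, was past 1.5-fold, from 13.4 to 22.6 FPKM. All 6 other monocarboxylate carriers with at least 1 FPKM had ratios above 1, with a median log2 ratio of 0.28, and Slc16a11 was past 1.5-fold, from 0.831 to 1.98 FPKM. The 4 other glucose carriers had a median of −0.05, 10 genes of pyruvate entry 0.08 and 6 hypoxia response genes 0.14, with none past 1.5-fold.

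In cultured GLI1+ cells the treatment was visible in the Hedgehog targets, since average FPKM of Gli1 went from 0.0280 with DMSO to 3.65 with SAG and that of Ptch1 from 1.12 to 10.1. The 7 genes stood in another order than in the tissue. Bsg led with 207.4 FPKM in DMSO, followed by Ldha at 104.0, Slc2a1 at 12.1, Ldhb at 7.19, Slc16a1 at 2.50, Slc16a3 at 0.851 and Slc2a12 at 0.527. In these cells Ldha exceeded Ldhb in average FPKM, whereas in whole RPE/choroid, which includes the RPE, Ldhb exceeded Ldha. The 4 stromal clusters also held more Ldha than Ldhb UMIs in both single-cell libraries, with Ldhb shares from 27.2% to 48.9%.

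With SAG, none of the 6 genes with at least 1 FPKM was past 1.5-fold, beside 1.38% of 10325 genes higher and 2.45% lower. Ldhb had the largest ratio, from 7.19 to 10.3 FPKM or 1.43-fold, the only one at least 25% higher, as were 6.33% of all genes. Slc16a3 went from 0.851 to 1.01 (1.19-fold), Slc2a1 from 12.1 to 12.98 (1.08-fold) and Slc16a1 from 2.50 to 2.66 (1.06-fold). Bsg at 205.0 and Ldha at 100.8 FPKM with SAG had ratios of 0.988 and 0.969. The median log2 ratio of the 6 was 0.10, and that of all genes 0.06. Of the metabolic lists, only Pdk4, a kinase that inhibits pyruvate dehydrogenase, was past 1.5-fold, from 3.32 to 1.99 FPKM. Stromal markers summed to 2472 FPKM with DMSO and 2246 with SAG, and EC markers stayed below 1 FPKM, at 0.267 and 0.431 in sum.

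**Figure D5:**
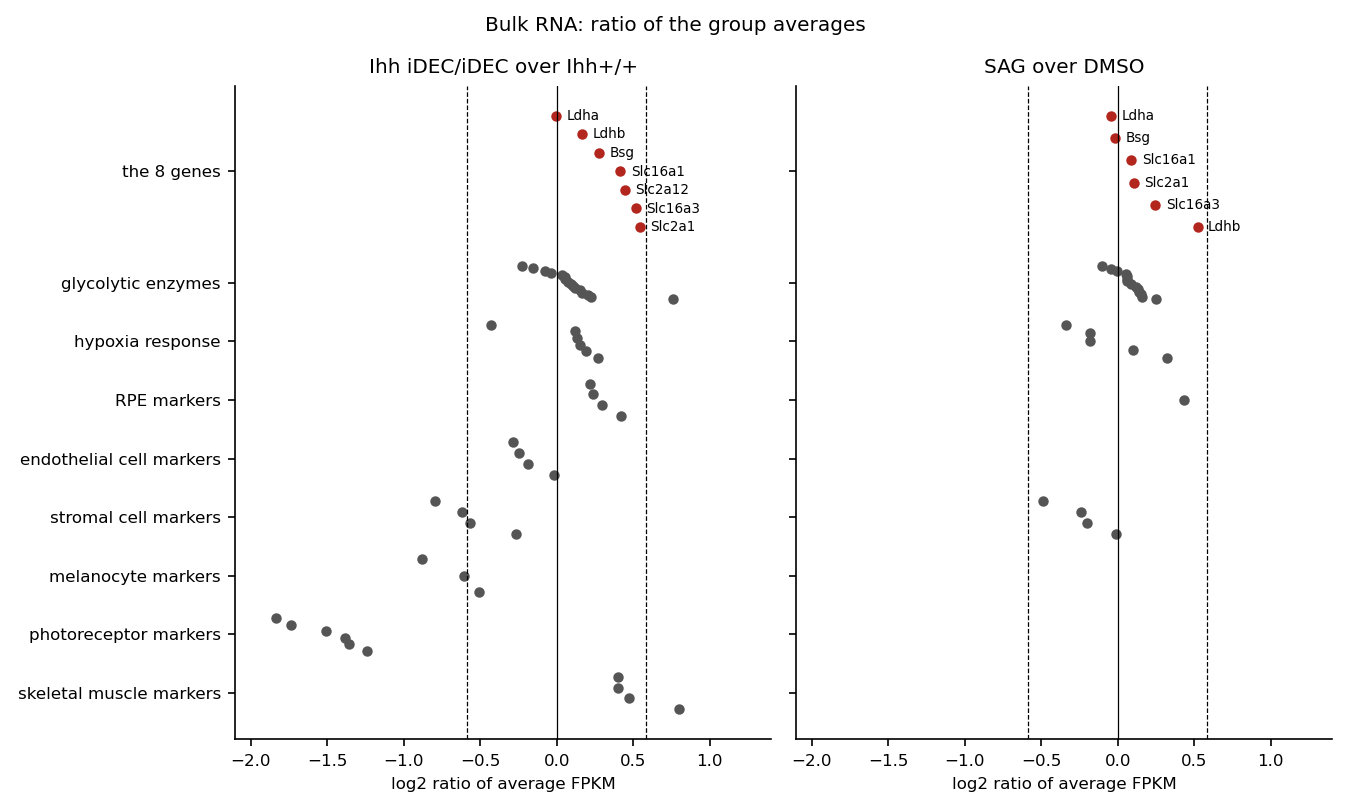
Log2 ratio of the authors' average FPKM (x axis) for IhhiΔEC/iΔEC over Ihh+/+ RPE/choroid (left) and SAG over DMSO in GLI1+ cells (right), for genes whose higher average reached 1 FPKM, grouped by list (y axis), with dashed lines at 1.5-fold either way. The averages carry no error bars. The 7 genes on the left lie between −0.01 and 0.54, and on the right the 6 genes lie between −0.04 and 0.52.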

How the data were processed

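Of the 26 samples, 2 single-cell libraries and 12 bulk libraries in 4 groups were used. Endothelial cells of other organs were not used here. Per the submitters' notes and the study's methods, the authors aligned single-cell reads to mm10 with Cell Ranger, filtered cells and clustered both libraries together with Seurat 2.1; the deposited single-cell tables hold raw UMI counts per gene and cell. For bulk RNA the authors used STAR 2.4.0f1 and Cufflinks 2.0.2, and the deposited tables hold each group's average FPKM over 3 libraries. They also hold the authors' log2 fold changes and adjusted p-values, which were not used. The limma test fitted to single libraries in the design could therefore not be run.

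Counts were summed per cluster and library with Python 3.11.15, numpy 2.4.6, scipy 1.17.1 and pandas 2.3.3. Levels have exact Poisson, shares Clopper-Pearson and ratios exact conditional 95% intervals. UMIs count 3′ ends and were not scaled for transcript length. The median depth was 3881 UMIs per cell (B6129PF1/J) and 3174.5 (C57BL/6J), and the lowest cells had 1959 and 1717. Comparisons of clusters took genes with at least 20 UMIs in both libraries, a fold of 2 and the same direction in both with intervals that left out 1. Comparisons of strains (at least 20 UMIs summed over both libraries) and of bulk averages took a fold of 1.5, the latter only where the higher average reached 1 FPKM. Doublets were not removed in the values reported. The scripts were tested on simulated data. The 8 genes, the lists and the markers were chosen with earlier results of these data known. Genes outside the 8 were named as the 3 highest in RPE of each list in B6129PF1/J, as past 1.5-fold in bulk, or as the 3 most similar over clusters (at least 100 UMIs in both libraries), except where stated; 1 gene under this rule is not reported here. Sequences are from RefSeq and gene positions from GENCODE.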

Additional observations from a re-analysis of the deposited data

How the results depend on the processing

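Alternatives for the single-cell levels were the mean over cells, thinning each cell to 1700 UMIs, leaving out doublets (cells with UMIs of both a female and a male transcript) with the deepest 5% of cells per cluster, 211 and 225 cells in all, and another total. Among ratios whose interval left out 1, 1 reversed: Slc2a1 in Kdr-low over Kdr-med ECs of C57BL/6J fell to 0.976 after thinning. Slc16a3 in Kdr-high ECs over hematopoietic cells of B6129PF1/J, whose interval held 1, became 0.935 without doublets and the deepest cells. The ratio of Slc2a1 in Kdr-med over Kdr-high ECs became 18.5, 18.2 and 17.6 in B6129PF1/J under the first 3 alternatives in that order, and 11.9, 12.3 and 9.55 in C57BL/6J. That in Kdr-low over Kdr-high ECs became 32.6, 31.9 and 33.5 in B6129PF1/J, and 12.3, 12.0 and 12.2 in C57BL/6J. The Slc16a8 share of the lactate carriers in the RPE of C57BL/6J became 80.7% after thinning. At a fold of 2, 10 pairs of gene and cluster differed between the strains. With a 25% rise as the limit, 4 of the 7 genes were called after Ihh deletion and 1 with SAG, against none at 1.5. The causes were not tested. Of the other alternatives to a main value, 29 moved it by less than its counting error or, for counts of genes, by less than 1.5 times. Of the alternatives to the values of single genes, 130 moved them by less than counting error or, for bulk ratios, 0.1 on the log2 scale, and 18 by more. No paired analysis was possible because the bulk tables hold group averages only, and for the same reason, with 1 single-cell library per strain, no replicate could be left out. Depth limits Slc2a12 (222 and 102 UMIs) and Slc16a3 (128 and 124).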
